A study of Rattus norvegicus with 6 samples.

Results

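Macrophages and other phagocytes were followed through 35 of their genes. These were chosen by name, with earlier results of these data known, from the genes these cells use to bind, engulf and destroy material. A gene was taken as measured where a platform annotation gave its symbol, or its only older rat symbol, alone to at least 1 probe set. This held for 32 of the 35 genes, out of 13404 genes named in this way on the array. The other 3, Cd163, Cyba and Ncf4, had no probe set of their own and were not analysed here. Adgre1 stood in the annotation as Emr1 and Spi1 as Sfpi1.

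The samples were L5 dorsal root ganglia of male Wistar rats. In the SNT group the L5 spinal nerve had been transected 7 days before the ganglia were collected, and naive animals served as the control, with no sham-operated group among these samples, so the nerve cut cannot be told apart from the surgery around it. Each group had 3 pools of ganglia from 4 animals each, that is 12 animals per group, and each pool was hybridised to 1 Affymetrix Rat Exon array. Values are log2 levels, and a gene's level on an array is the median polish of its probe sets, which cover an exon or a part of it. A level holds the RNA of a whole ganglion, so more macrophages and more RNA per macrophage cannot be told apart.

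A resident population of macrophages lies among the cell bodies and along the vessels of the dorsal root ganglion, and injury of the axon is known to raise the number of macrophages there. These cells engulf debris and coated particles through Fc receptors, lectins and scavenger receptors. Many of those receptors signal through small adaptor proteins that carry an immunoreceptor tyrosine-based activation motif (ITAM), which Src family kinases phosphorylate. Material taken up is broken down in lysosomes and by the superoxide that the NADPH oxidase makes. The transcription factor PU.1, the product of Spi1, sets up the myeloid lineage and binds near many of these genes.

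Promoter sequences were at hand for 20 of the 32 genes, and 4 that hold matches to the motifs below are shown. They belong to genes with some of the largest changes (Gpnmb, Cd68, Trem2) and to the catalytic subunit of the oxidase (Cybb). Each runs 5′ to 3′ and holds the 250 bases before the RefSeq transcription start (GRCr8). Capitals mark matches on either strand to the core of the PU.1 motif (GAGGAA) and to looser patterns. These are TGANTCA, which includes the AP-1 motif, and TCANNTGA, which includes an E-box bound by the MITF and TFE family. N stands for any base, so a match to either of these need not be a site of those proteins. The Gpnmb stretch is chr4:79340878-79341127 on the plus strand, that of Cd68 chr10:54882442-54882691, that of Trem2 chr9:20151780-20152029 and that of Cybb chrX:16065066-16065315, all 3 on the minus strand.
Gpnmb: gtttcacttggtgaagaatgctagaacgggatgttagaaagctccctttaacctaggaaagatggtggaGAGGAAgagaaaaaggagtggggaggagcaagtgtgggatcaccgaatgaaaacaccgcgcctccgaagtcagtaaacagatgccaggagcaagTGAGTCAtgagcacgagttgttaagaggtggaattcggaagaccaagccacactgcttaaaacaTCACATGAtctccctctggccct
Cd68: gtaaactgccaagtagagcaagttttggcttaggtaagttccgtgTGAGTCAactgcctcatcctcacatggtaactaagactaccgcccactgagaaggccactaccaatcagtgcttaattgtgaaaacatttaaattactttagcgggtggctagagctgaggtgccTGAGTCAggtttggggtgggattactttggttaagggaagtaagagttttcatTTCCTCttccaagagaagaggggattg
Trem2: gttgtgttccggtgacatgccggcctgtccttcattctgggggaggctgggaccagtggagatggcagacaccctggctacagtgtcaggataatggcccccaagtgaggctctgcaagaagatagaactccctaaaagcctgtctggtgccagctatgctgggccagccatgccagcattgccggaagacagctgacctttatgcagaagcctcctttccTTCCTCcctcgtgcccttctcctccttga
Cybb: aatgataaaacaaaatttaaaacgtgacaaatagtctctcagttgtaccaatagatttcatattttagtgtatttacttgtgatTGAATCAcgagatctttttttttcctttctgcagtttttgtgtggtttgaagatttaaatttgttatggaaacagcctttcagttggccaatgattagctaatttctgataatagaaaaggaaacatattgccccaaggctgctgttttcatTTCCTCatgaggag
The PU.1 core was found in 14 of the 20 promoters (70%), against 7812 of 33469 promoters of all genes (23.3%). It lay in 13 of the 17 promoters of genes that rose and in 1 of the 3 of genes that did not pass. With only 3 promoters of genes that did not pass, nothing is read from this split. The AP-1 pattern was found in 3 of the 20 (as TGAATCA in Cybb, and as TGAGTCA in Cd68 and Gpnmb), against 6.34% of all promoters. The E-box pattern was found in 2 (as TCACATGA in Gpnmb and as TCAATTGA in Cd53), against 6.65% of all promoters. No match to 1 motif overlapped a match to another. Clec7a and Mpeg1 changed more than Trem2 and Cybb, but their promoters, not shown, held 0 matches to any of these patterns. A match is a run of letters and was not shown to be bound.

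Macrophage and phagocyte genes were higher 7 days after SNT. Of 32 measured, 29 rose, 0 fell and 3 (Cd37, Coro1a and Cd48) did not pass limma's test at a false discovery rate of 0.1, where 12.9% of all genes rose and 23.3% fell (36.2% in either direction). At an unadjusted limma p under 0.05, 30 were higher and 0 lower. The largest rise was that of Gpnmb, 14.1-fold, and 22 members rose by over 2-fold, as did 2.34% of all genes. The median log2 fold change was 1.24 over the members and -0.02 over all genes. In 27 members every SNT array lay above every naive array, which held for 16.9% of all genes.

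**Figure D1:**
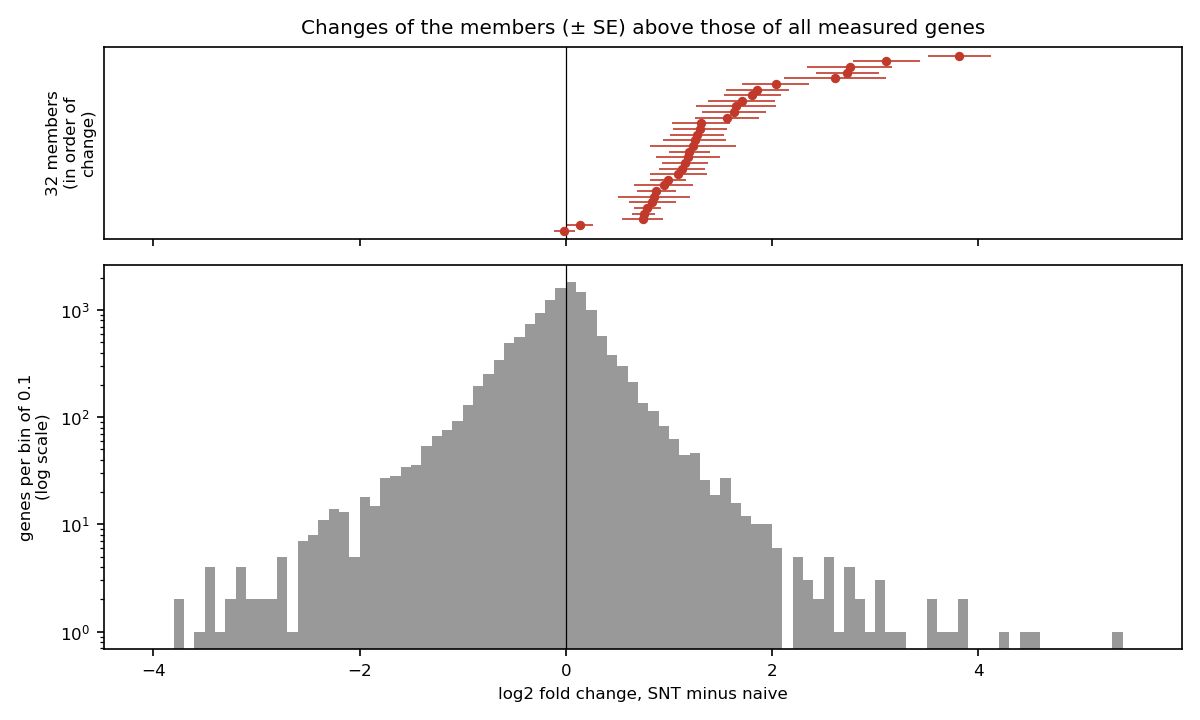
The upper panel shows the log2 fold change (SNT minus naive) of each of the 32 members with its standard error, and the lower panel counts all 13404 genes in bins of 0.1 on a log axis. The members run from -0.01 to 3.82, with their median at 1.24, while the median of all genes is -0.02.

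The arrays themselves were not equally far apart. SNT 1 lay nearer to the naive arrays (Pearson's r over all probe sets from 0.955 to 0.960) than SNT 2 and SNT 3 did (0.938 to 0.947), and the median SD of a gene was 0.18 among SNT and 0.09 among naive arrays. Of all called genes 35.7% were higher in SNT, but 46.1% after cyclic loess and 56.2% after centring each array on its median, with the median over all genes at 0.09 in place of -0.02. The counts of members that rose were 29, 30 and 30 under these 3 scalings. Neurone markers gave the tissue its identity: the 8 measured had mean naive levels between 9.58 (Isl1) and 13.08 (Tubb3), above 5.11, the percentile 25 of all probe set means that is taken here as background.

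The lysosomal and antimicrobial proteins held the largest changes. Gpnmb, a transmembrane glycoprotein of phagocytes that handle much debris, had log2 levels of 10.64, 11.96 and 11.18 on SNT 1, 2 and 3, against 7.47, 7.25 and 7.62 on naive 1, 2 and 3. It rose 14.1-fold (3.82 ± 0.31 SE on the log2 scale, n = 3 arrays per group, limma adjusted p = 0.00133), and its lowest SNT array was 3.03 log2 units above its highest naive array, the widest gap among the members. Cd68, a lysosomal membrane protein used to stain macrophages, stood at 9.64, 11.05 and 10.17 on SNT 1, 2 and 3, against 7.12, 7.01 and 7.40 on naive 1, 2 and 3. Its change was 3.11 ± 0.33, or 8.63-fold (adjusted p = 0.00196), and again no arrays overlapped. Mpeg1, a pore-forming protein directed at engulfed bacteria, had 9.02, 10.29 and 9.77 in SNT ganglia, against 6.79, 6.87 and 7.24 in naive ganglia. It rose 6.64-fold (2.73 ± 0.30, adjusted p = 0.00222) on the evidence of 2 probe sets.

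Laptm5 and Lyz2 changed less within this group. Laptm5, a lysosomal membrane protein of blood-derived cells, had 10.12, 10.97 and 10.47 in SNT ganglia, against 9.20, 8.88 and 9.67 in naive ganglia, a rise of 1.27 ± 0.26 (adjusted p = 0.0117). Lyz2, the lysozyme that cuts bacterial cell walls, had 11.91, 12.43 and 12.28 in SNT ganglia, against 11.19, 11.00 and 11.46 in naive ganglia. Its rise of 0.99 ± 0.17 (1.99-fold, adjusted p = 0.00657) was free of overlap, and its SD in SNT ganglia, 0.27, was close to that in naive ganglia, 0.23.

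**Figure D2:**
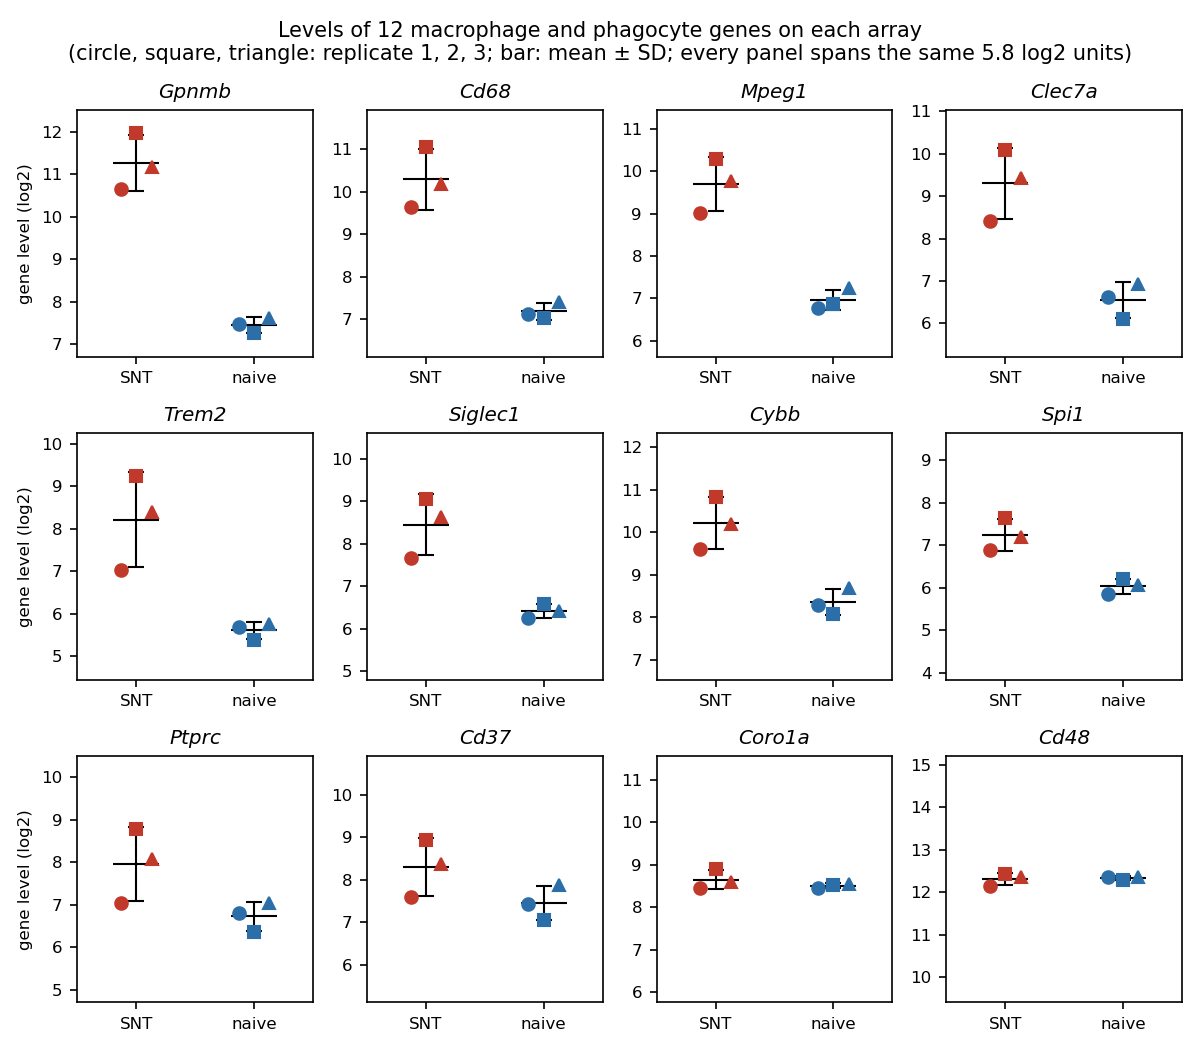
Each panel gives the log2 level of 1 gene on the 3 SNT arrays (red, left) and the 3 naive arrays (blue, right), with mean ± SD (n = 3). Gpnmb, Cd68, Mpeg1, Clec7a and Trem2 show a clear gap between the groups, in Ptprc and Cd37 SNT 1 lies within the naive values, and Coro1a and Cd48 lie at nearly the same level in both groups.

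The ITAM adaptors and the receptors that work with this motif rose in 4 of 4 cases. Trem2, a lipid-sensing receptor, was at 7.02, 9.23 and 8.39 on SNT 1, 2 and 3, against 5.69, 5.37 and 5.75 on naive 1, 2 and 3. It rose 6.11-fold (2.61 ± 0.49, adjusted p = 0.00862), and it varied more among SNT arrays than any other member (SD 1.11 in SNT and 0.21 in naive ganglia). Its log2 change was 3.21 without SNT 1 and 2.10 without SNT 2. Tyrobp, the adaptor through which Trem2 signals, was at 9.98, 10.98 and 10.48 in SNT ganglia, against 8.64, 8.32 and 9.05 in naive ganglia. Its rise was 3.51-fold (1.81 ± 0.28, adjusted p = 0.00452).

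Fcer1g, the gamma chain that gives Fc receptors their ITAM, had 9.99, 11.31 and 10.70 in SNT ganglia, against 8.95, 8.86 and 9.29 in naive ganglia. It rose 3.10-fold (1.63 ± 0.31, adjusted p = 0.00874). Clec7a, the beta-glucan receptor dectin, carries a related motif in its own tail and had 8.41, 10.08 and 9.42 in SNT ganglia, against 6.63, 6.10 and 6.94 in naive ganglia. Its rise of 2.75 ± 0.41 (6.73-fold, adjusted p = 0.00422) stood beside that of Trem2 as the largest of this group, and the gap between them was smaller than either SE.

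All 3 Fc receptors for IgG rose, but not equally clearly. Fcgr2b, the inhibitory receptor, was at 6.87, 8.13 and 7.81 in SNT ganglia, against 6.10, 5.53 and 6.06 in naive ganglia. It rose 3.26-fold (1.71 ± 0.32, adjusted p = 0.00877). Fcgr3a, an activating receptor, had 6.23, 7.13 and 6.95 in SNT ganglia, against 5.78, 5.53 and 5.63 in naive ganglia, a rise of 1.13 ± 0.23 (adjusted p = 0.0105). Fcgr1a, the high-affinity receptor, had 7.56, 8.62 and 8.56 in SNT ganglia, against 7.25, 7.08 and 7.56 in naive ganglia. On SNT 1 it was no higher than on naive 3, and its call (0.95 ± 0.29, adjusted p = 0.046) was lost without SNT 2, SNT 3, naive 1 or naive 2 (adjusted p up to 0.142). The genes of this family are close in sequence, and the symbol Fcgr3a has also been used for the gene now called Fcgr2a, so the division of signal between them is uncertain.

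Kinases and adaptors downstream of these receptors rose in 4 of 4 cases. Lcp2, a scaffold that assembles the signalling complex, was at 7.67, 8.77 and 8.32 in SNT ganglia, against 6.87, 6.83 and 7.17 in naive ganglia, a rise of 1.30 ± 0.26 (adjusted p = 0.0107). Vav1, a signalling protein of blood cells, was at 7.22, 8.14 and 7.77 in SNT ganglia, against 6.41, 6.53 and 6.71 in naive ganglia, a rise of 1.16 ± 0.22 (adjusted p = 0.0094). In both genes the groups were apart by about 0.51 log2 units. Lcp2 did not pass when its most variable probe set stood for the gene (adjusted p = 0.488).

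The Src family kinase Lyn had 7.35, 8.64 and 8.21 in SNT ganglia, against 6.81, 6.66 and 7.17 in naive ganglia, a rise of 1.18 ± 0.31 (adjusted p = 0.0288). Its relative Fgr had 6.23, 6.96 and 6.67 in SNT ganglia, against 5.94, 5.67 and 6.02 in naive ganglia, a rise of 0.74 ± 0.20 (adjusted p = 0.0279), the smallest of all members that passed. For both kinases SNT 1 lay only just above the highest naive array, by 0.18 in Lyn and 0.20 in Fgr, and Fgr did not pass without naive 2. Neither passed on the most variable probe set alone (adjusted p = 0.341 for Lyn and 0.235 for Fgr) or with the ordinary t statistic (0.127 and 0.113).

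Of the other genes of ITAM signalling, 7 of 12 measured rose and 0 fell. Blnk, a B cell and macrophage adaptor, rose by 1.28 ± 0.32, the lipid kinase subunit Pik3cg by 1.11 ± 0.25 and the adaptor Sh3bp2 by 0.95 ± 0.17 (adjusted p = 0.023, 0.0165 and 0.00681). Syk, the kinase that docks on a phosphorylated ITAM, rose by 0.94 ± 0.27, and Card9, which acts below dectin, was at 0.04 ± 0.09 (adjusted p = 0.752). Their median change was 0.62. Only 4 rose without naive 1 and 3 without naive 2. Receptors and phosphatases that restrain these signals rose in 6 of 7 cases, with a median of 0.96, led by the inhibitory receptors Lilrb4 (3.00 ± 0.86) and Cd300a (1.54 ± 0.27) and the phosphatase Ptpn6 (0.98 ± 0.26). Of these, 3 rose without SNT 3, without naive 1 or without naive 2. Lair1 was at -0.04 ± 0.31 (adjusted p = 0.943).

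The 3 measured scavenger and lectin receptors rose. Siglec1, a sialic acid-binding receptor of macrophages, was at 7.67, 9.06 and 8.62 in SNT ganglia, against 6.25, 6.59 and 6.42 in naive ganglia. It rose 4.09-fold (2.03 ± 0.32, adjusted p = 0.00505), with a gap of 1.08 between the groups. The scavenger receptor Msr1, which takes up modified lipoproteins, was at 7.07, 8.30 and 7.65 in SNT ganglia, against 6.38, 6.27 and 6.43 in naive ganglia, a rise of 1.31 ± 0.28 (adjusted p = 0.0129).

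The mannose receptor Mrc1, a marker of resident and alternatively activated macrophages, had 7.60, 8.69 and 8.06 in SNT ganglia, against 7.02, 6.75 and 7.31 in naive ganglia. It rose 2.13-fold (1.09 ± 0.28, adjusted p = 0.0245), a call lost on the most variable probe set alone (adjusted p = 0.308) and with the ordinary t statistic (0.115). Among other genes of tissue-resident macrophages 4 of 9 rose and 2 fell, where 12.9% of all genes rose and 23.3% fell. The count of falls is close to that share, and nothing is read from it. The folate receptor Folr2 (1.87 ± 0.34), the receptor kinase Axl (1.07 ± 0.18) and the growth factor Igf1 (0.63 ± 0.18) were among those that rose. The clotting factor subunit F13a1 (-0.54 ± 0.09, adjusted p = 0.00601) and Gas6, a ligand of Axl (-0.45 ± 0.08, adjusted p = 0.00877), fell. Without naive 2 only 2 of these 9 rose, and which cells of the ganglion gave their signals was not tested.

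Both measured subunits of the NADPH oxidase rose. Cybb, the catalytic subunit in the membrane, had log2 levels of 9.61, 10.82 and 10.20 on SNT 1, 2 and 3, against 8.29, 8.08 and 8.70 on naive 1, 2 and 3. It rose 3.63-fold (1.86 ± 0.30, adjusted p = 0.00549), and its 15 probe sets all passed. Ncf1, the cytosolic organiser subunit, had 7.35, 9.06 and 7.84 in SNT ganglia, against 6.49, 6.32 and 6.50 in naive ganglia. Its rise was 3.14-fold (1.65 ± 0.39, adjusted p = 0.0188), and SNT 2 stood 1.22 log2 units above SNT 3. Ncf1 did not pass on the most variable probe set alone (adjusted p = 0.102) or with the ordinary t statistic (0.104).

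Of 5 other genes of the oxidase family 1 rose, where 12.9% of all genes did, so the count does not set this family apart. It was the GTPase Rac2 of blood cells (0.82 ± 0.29, adjusted p = 0.0737), and it did not pass without SNT 2, SNT 3, naive 1 or naive 2, while 3 genes rose without SNT 1. Nox4 (0.25 ± 0.11), Rac1 (0.19 ± 0.09), Noxo1 (0.11 ± 0.15) and Noxa1 (0.05 ± 0.08) did not pass (adjusted p from 0.127 to 0.723), and 3 genes of this list rose after centring.

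Of the 3 actin-binding proteins of leukocytes 2 rose, and the median of 0.76 was the smallest among the groups of members. Aif1, a calcium-binding protein used to stain microglia and macrophages, was at 7.47, 7.67 and 7.45 in SNT ganglia, against 6.78, 6.63 and 6.90 in naive ganglia. It rose 1.69-fold (0.76 ± 0.11, adjusted p = 0.00403), and it was the only member in which SNT 3 and not SNT 1 was the lowest SNT array. Lcp1, which bundles actin filaments, was at 10.54, 10.98 and 10.85 in SNT ganglia, against 9.99, 10.09 and 9.92 in naive ganglia, a rise of 0.79 ± 0.13 (adjusted p = 0.00559, and 0.12 on the most variable probe set alone).

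Coro1a, a coronin that binds branched actin in leukocytes, did not pass. It was at 8.46, 8.89 and 8.58 in SNT ganglia, against 8.44, 8.52 and 8.55 in naive ganglia (0.14 ± 0.13, adjusted p = 0.472), and SNT 1 and SNT 3 lay close to the naive values. Other leukocyte regulators of actin rose in 13 of 15 cases, with a median of 0.87. They included the motor Myo1f (1.37 ± 0.30), the adhesion protein Parvg (1.27 ± 0.25) and Nckap1l, a subunit of the WAVE complex (1.25 ± 0.30). Plek (0.74 ± 0.31) and Arhgdib (0.63 ± 0.37) did not pass.

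Among 7 leukocyte surface proteins 5 rose. Cd53, a tetraspanin of blood cells, was at 10.28, 11.45 and 10.82 in SNT ganglia, against 9.11, 9.05 and 9.72 in naive ganglia, a rise of 1.56 ± 0.31 (adjusted p = 0.0102). Adgre1, the adhesion receptor known in the mouse as the classical macrophage antigen, lay between 8.38 and 9.61 in SNT ganglia and between 7.39 and 8.01 in naive ganglia, a rise of 1.25 ± 0.31 (adjusted p = 0.0223). Neither overlapped between the groups. Adgre1 did not pass on the most variable probe set alone (adjusted p = 0.118) or with the ordinary t statistic (0.111).

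Ptprc, the receptor phosphatase found on all nucleated blood cells, was at 7.03, 8.77 and 8.08 in SNT ganglia, against 6.79, 6.36 and 7.03 in naive ganglia. SNT 1 lay within the naive values, and the rise of 1.23 ± 0.41 (adjusted p = 0.0633) did not pass without SNT 2, SNT 3, naive 1 or naive 2 (adjusted p up to 0.184) nor at a false discovery rate of 0.05. Cd86, which costimulates T cells, was at 6.36, 7.08 and 6.81 in SNT ganglia, against 5.87, 5.71 and 6.04 in naive ganglia, a rise of 0.88 ± 0.19 (adjusted p = 0.0135). Lst1, a small leukocyte membrane protein, was at 6.45, 7.40 and 6.79 in SNT ganglia, against 6.11, 6.02 and 5.98 in naive ganglia, a rise of 0.84 ± 0.22 (adjusted p = 0.0298). Cd86 and Lst1 were free of overlap, but Cd86 did not pass on the most variable probe set alone (adjusted p = 0.128) and Lst1 did not with the ordinary t statistic (0.122).

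The remaining surface proteins did not pass. Cd37, a tetraspanin most abundant in B cells, was at 7.59, 8.94 and 8.38 in SNT ganglia, against 7.43, 7.05 and 7.87 in naive ganglia, and SNT 1 lay below naive 3 (0.86 ± 0.35, adjusted p = 0.113). It passed without SNT 1, where its change was 1.21 (adjusted p = 0.0157), after cyclic loess and centring, and with the mean of its probe sets. Without SNT 2 its change was 0.54 (adjusted p = 0.267) and without naive 2 0.66 (adjusted p = 0.297). Cd48, a surface ligand of the SLAM family, stood at 12.15, 12.43 and 12.37 in SNT ganglia, against 12.35, 12.28 and 12.36 in naive ganglia. Its difference was -0.01 ± 0.10 (adjusted p = 0.941), smaller than its SE, and its sign turned after either rescaling. Its 6 probe sets had mean levels of 11.49 to 12.97, and whether the platform annotation assigns them to the right gene was not tested.

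Spi1, the lineage transcription factor, had log2 levels of 6.88, 7.64 and 7.19 on SNT 1, 2 and 3, against 5.85, 6.20 and 6.07 on naive 1, 2 and 3. It rose 2.29-fold (1.20 ± 0.20, adjusted p = 0.00549) with a gap of 0.68 between the groups. Of 11 other genes listed as myeloid transcription factors and activators 7 rose and 0 fell, with a median of 0.61. Irf8, a partner of PU.1, rose by 1.79 ± 0.29, the transmembrane activator Nfam1, which signals through an ITAM, by 1.65 ± 0.31 and Ikzf1 by 1.12 ± 0.29. Maf (0.11 ± 0.10) and Runx1 (-0.06 ± 0.15) did not pass. Their naive means, 9.54 and 8.46, were above the 6.04 of Spi1, and which cells of the ganglion gave this signal was not tested.

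**Figure D3:**
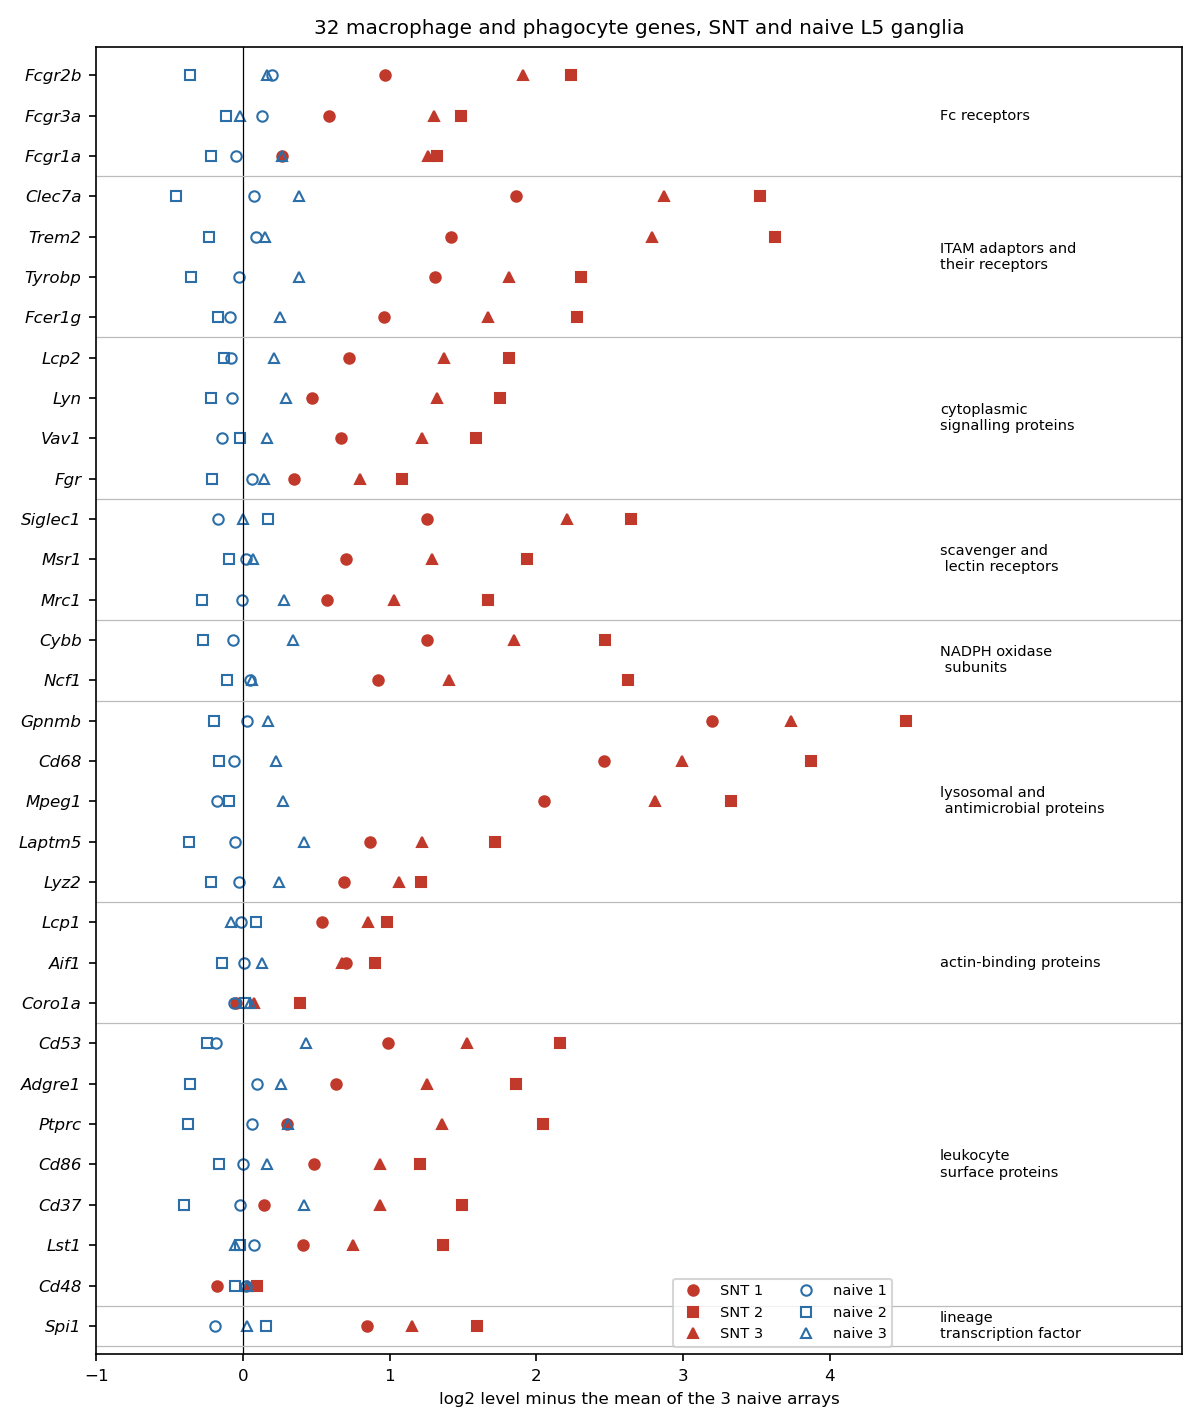
For each of the 32 members, grouped by role, the points give the log2 level on every SNT array (filled red) and every naive array (open blue) minus the mean of the 3 naive arrays. SNT 2 (square) is the highest SNT array in all 32 genes and SNT 1 (circle) the lowest in 31, and the naive arrays lie between -0.46 and 0.43.

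The size of the rise depended on the pool. SNT 2 was the highest SNT array in 32 of 32 members and SNT 1 the lowest in 31, the exception being Aif1. Of all genes that rose, SNT 1 was the lowest in 81.0%, and SNT 2 the highest in 1028 of 1734. The members lay at a median of 0.70 above the naive mean in SNT 1, of 1.79 in SNT 2 and of 1.30 in SNT 3, while the medians over all genes that rose were 0.37, 0.73 and 0.67. SNT 2 exceeded SNT 1 by 2.20 log2 units in Trem2, 1.74 in Ptprc and 1.71 in Ncf1, but by 0.52 in Lyz2, 0.44 in Lcp1 and 0.20 in Aif1.

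Naive ganglia also differed from pool to pool, by less. Naive 3 was the highest naive array in 26 of 32 members and naive 2 the lowest in 25, with medians of 0.19 and -0.18 around the naive mean and -0.01 on naive 1. Across members the median SD was 0.59 among SNT arrays and 0.20 among naive arrays, and in 31 of 32 members it was larger in SNT, against 78.0% of all genes. Because the members shared these shifts, their calls are not separate pieces of evidence about the injury. Without SNT 1 30 members rose, and 26 to 29 rose with any 1 other array left out.

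The exon design gave 412 probe sets for the 32 members. Of these 274 were higher in SNT and 0 lower (335 and 0 at an unadjusted p under 0.05), where 5.16% of all 226599 probe sets were higher and 10.7% lower by the same test (15.9% in either direction), and 402 of the 412 differences were above 0. Among the 26 member probe sets with a mean level at or under background 7 rose, against 267 of the 386 above it. When naive 1 was left out 136 member probe sets passed, and the same number passed when naive 2 was left out, but 352 did so when SNT 1 was. In Gpnmb, Cd68, Clec7a, Mpeg1, Cybb, Tyrobp, Fcer1g and Laptm5 every probe set passed.

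Within a gene the probe sets could differ widely. Those of Cybb ran only from 1.58 to 2.02. Those of Gpnmb ran from 0.97 to 4.74, with 13 of 14 above 3. Siglec1 had 29 probe sets from 0.12 to 2.99, of which 27 passed, and the probe set with the smallest change was also the brightest of the gene.

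Aif1 split into separate groups of probe sets. A set of 5 rose by 1.37 to 1.68, and the other 8, at -0.02 to 0.82, did not pass, so that the gene's value of 0.76 lies between them. Trem2 had 7 probe sets at 1.50 to 3.22 and others at 0.26 and 0.67. The 3 lowest changes of Msr1, -0.09, 0.29 and 0.32, belonged to probe sets with mean levels of 2.40, 3.88 and 3.35, under background.

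The members that did not pass differed in the same respect. All 9 probe sets of Cd37 were higher, by 0.49 to 1.15, and 1 passed. Coro1a had 13 from -0.26 to 0.63 and Cd48 had 6 from -0.14 to 0.06, and 0 passed in either gene by limma at an FDR of 0.1. At an unadjusted p under 0.05, 1 probe set of Coro1a and 0 of Cd48 were higher.

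**Figure D4:**
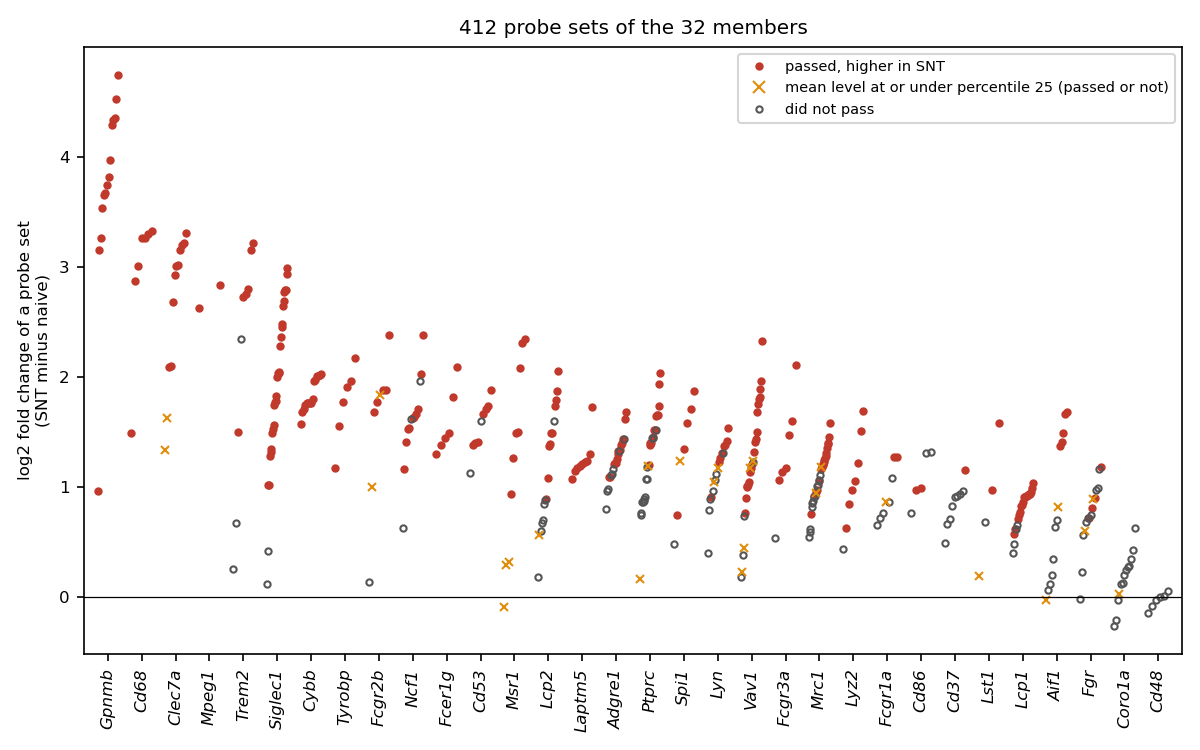
Each point is the log2 fold change (SNT minus naive) of 1 of the 412 probe sets, with genes in order of their own change and probe sets in order within a gene. Filled red points passed (FDR 0.1), open points did not, and crosses mark probe sets at or under the background level of 5.11, whether they passed or not. Most members lie wholly above 0, and Aif1, Trem2 and Msr1 show a wide spread within the gene.

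Leukocyte integrins and related surface genes were also higher. Of 10 measured, 9 rose and 0 fell, with a median of 1.00. The integrin chains Itgb2 (1.83 ± 0.37), Itgam (1.56 ± 0.28) and Itgal (1.41 ± 0.25) led them, and Cd52 (-0.29 ± 0.37) did not pass. Genes of lysosomes and lipid handling in phagocytes rose in 7 of 14 cases. Ctss, a protease of antigen-presenting cells, rose by 2.02 ± 0.28, the cholesterol exporter Abca1 by 1.71 ± 0.15 and the lysosomal membrane protein Cd63 by 0.99 ± 0.19. A second exporter, Abcg1, fell (-0.48 ± 0.11, adjusted p = 0.0146), and 2 genes of this list fell without SNT 2 or without naive 2. With 23.3% of all genes lower, nothing is read from the count of falls. The lysosomal genes Ctsb (0.01 ± 0.09) and Lamp1 (0.06 ± 0.10), which neurones and glia also express, did not pass.

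Monocyte genes rose in 3 of 7 cases. The chemokine receptor Ccr2 rose by 0.98 ± 0.20, versican, Vcan, by 1.49 ± 0.37 and Ace by 0.32 ± 0.12, and Ly6c was at -0.06 ± 0.43 (adjusted p = 0.936). This count was 5 without SNT 1, but it fell to 2 with another array left out and to 1 at the lowest over all alternatives. Of 6 genes named after microglia of the brain 3 rose, Siglech (0.94 ± 0.25), P2ry13 (0.94 ± 0.19) and Olfml3 (0.79 ± 0.14), and P2ry12 was at 0.41 ± 0.22 (adjusted p = 0.204). Siglech had a naive mean of 4.66, under background, and 2 of its 5 probe sets were above it. Proliferation genes rose in 5 of 8 cases, with a median of 0.92, among them Cdk1 (1.42 ± 0.36), Top2a (1.30 ± 0.31) and Mki67 (1.28 ± 0.38). Their medians of 0.39, 1.46 and 1.03 on SNT 1, 2 and 3 ran in the same order as those of the members. Without naive 1, 3 of them rose.

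**Figure D5:**
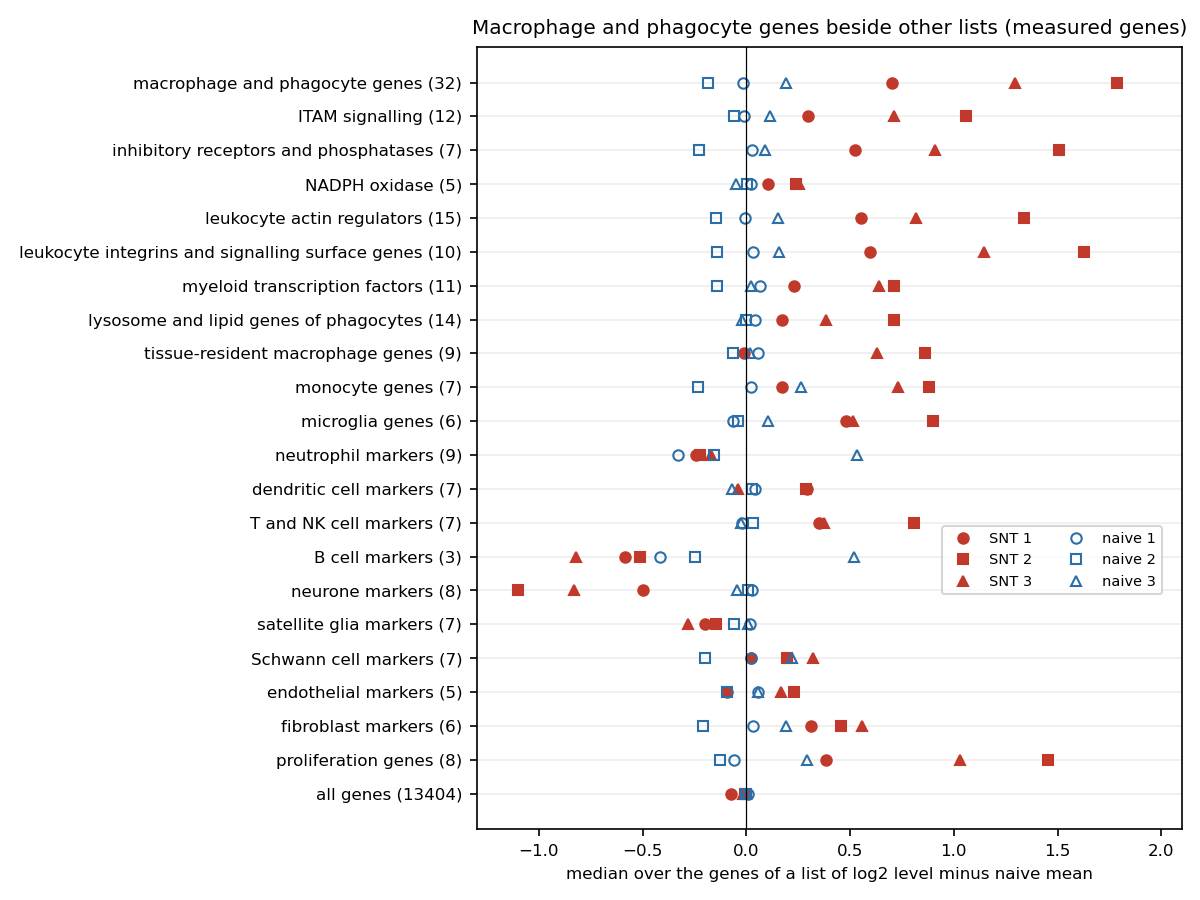
Each row is a gene list with its number of measured genes, and the points give the median over the list of the log2 level minus the naive mean on each SNT array (filled red) and each naive array (open blue). Macrophage and phagocyte genes lie at 0.70, 1.79 and 1.30 on SNT 1, 2 and 3, integrins and related surface genes lie at 0.59, 1.63 and 1.14, and neurone markers lie below 0 on all 3 SNT arrays.

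Other immune cells were followed through their markers. T and NK cell markers rose in 4 of 7 cases (median 0.51), led by Cd8a (2.37 ± 0.36) and Klrk1 (1.54 ± 0.35), while Cd3d was at 0.28 ± 0.17. Their mean log2 level over the list was 5.33 to 5.93 on SNT arrays and 4.79 to 4.88 on naive arrays, and 2 rose without naive 1. Neutrophil markers rose in 1 of 9 cases (Csf3r, 0.62) and fell in 2 (Ngp, -1.63, and Camp, -1.14), with mean levels of 5.53 to 5.79 on SNT and 5.48 to 6.54 on naive arrays. These counts lie close to the 12.9% of all genes that rose and the 23.3% that fell, and nothing is read from them. After centring 1 neutrophil marker fell. The 2 falls did not pass without SNT 2, SNT 3 or naive 2, and 1 passed without naive 3, while 2 of these markers rose without naive 3. B cell markers fell in 1 of 3 cases (Ms4a1, -0.57), which did not pass without SNT 3 or naive 3, with mean levels of 5.31 to 5.67 on SNT and 5.81 to 6.71 on naive arrays. Ms4a1 itself had means of 4.31 on SNT and 4.88 on naive arrays, under background, and 1 of its 8 probe sets was above it. With 3 genes measured and 23.3% of all genes lower, nothing is read from this count. Dendritic cell markers rose in 3 of 7 cases, of which Clec9a (0.59 ± 0.11) changed most, and Flt3 fell (-1.20 ± 0.13), with mean levels of 6.35 to 6.56 on SNT and 6.34 to 6.44 on naive arrays. Without SNT 2, SNT 3 or naive 2, 1 of them rose. Clec9a had a naive mean of 4.59, under background, and 6 of its 16 probe sets were above it. Flt3 had the highest naive mean of this list, 8.08, and which cells of the ganglion gave its signal was not tested. Since T cells and neutrophils share Ptprc, Coro1a, Lcp1, Cd53 and other members with macrophages, the part of these cells in the members' changes was not tested.

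Cells of the nerve itself were measured on the same arrays. Neurone markers fell in 5 of 8 cases, with medians of -0.50, -1.10 and -0.83 on SNT 1, 2 and 3, so that the array with the largest rise of the members also had the largest fall of this list. Isl1 (-1.66 ± 0.24), Nefh (-1.29 ± 0.23) and Nefm (-1.01 ± 0.20) led the falls. Uchl1 (-0.30 ± 0.12), Prph (-0.27 ± 0.11) and Tubb3 (-0.01 ± 0.11) did not pass. Whether fewer neurones or less of these RNAs per neurone gave the falls was not tested. Satellite glia markers rose in 2 and fell in 3 of 7 cases, but 1 rose without naive 2 and 1 fell without naive 1. Schwann cell markers rose in 2 of 7 cases, and in 1 without SNT 2, SNT 3, naive 1 or naive 2. Fibroblast markers rose in 3 of 6 cases, and in at least 2 with 1 array left out, but the lowest count over all alternatives was 0. Endothelial markers rose in 0 of 5 cases by limma at an FDR of 0.1 and in 0 at an unadjusted p under 0.05, and 1 rose without SNT 1. Of all genes 12.9% rose and 23.3% fell. With so few genes in each list, nothing is read from the satellite glia, Schwann cell and endothelial counts. The part that a changed share of cell types had in the members' rises was not tested.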

How the data were processed

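The authors processed Affymetrix Rat Exon 1.0 ST arrays in R with the oligo package and deposited log2 values of 226599 probe sets, made by robust multi-array averaging (RMA) with quantile normalisation and median polish at the exon level. For both tools the version is not given in the sources used here. Of the columns of per-sample values 0 were left unmapped. Quantile normalisation makes changes relative to the whole array, and no detection calls were used. With 3 arrays per group, their number limits the precision.

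Groups came from the sample labels. The 164162 probe sets with exactly 1 symbol (2388 had several, 60049 none) were updated through the GRCr8 gene table, where 2976 of 13411 symbols had a unique synonym, and combined by Tukey median polish (at most 20 iterations) into 13404 genes, of which 603 had 1 probe set. For each gene the SNT pools were set against the naive pools in limma 3.58.1 (lmFit, eBayes; R 4.3.3), group as the only term, two-sided, with Benjamini-Hochberg adjustment over all genes or all probe sets and a false discovery rate of 0.1, as in the methods of the study. Standard errors (SE) are limma's moderated errors. The fits were tested on simulated data with planted changes. The series description calls the pools biological replicates.

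The members and the other gene lists were chosen with earlier results of these data known, so their counts are descriptions beside the share of all genes called, and no list was tested. All measured members are given. From each other list the text names up to 3 of the called genes with the largest change, those that moved against their list, and further genes picked after their values were seen. Promoter sequences are RefSeq's (GRCr8), matched by symbol, and the motifs were chosen after the changes were known. Alternatives covered the false discovery rate, variance model, array weights, normalisation, gene summary, a filter on dim probe sets, the replicate number as a block, and fits without each array in turn.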

Additional observations from a re-analysis of the deposited data

Results flagged for a closer look

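A set of 12 probe sets carried the symbols Fcgr3 and Fcgr2b together and therefore counted towards no gene. Of the 12, 10 were higher in SNT than in naive ganglia by limma at a false discovery rate of 0.1. This held for 5.16% of all probe sets and for 66.5% of the member probe sets. All 12 differences were above 0, from 0.70 to 2.50 with a median of 2.05 on the log2 scale. The 8 probe sets that named Fcgr2b alone had a median of 1.81.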

How the results depend on the processing

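Over 16 alternatives at the gene level, 18 of the 29 members that rose kept their call in every one, and 26 kept it whichever array was left out (Fcgr1a, Fgr and Ptprc did not). The ordinary t statistic lost Fcgr1a, Fgr, Lyn, Mrc1, Ncf1, Adgre1, Ptprc and Lst1, and the most variable probe set lost Lcp2, Fgr, Lyn, Mrc1, Ncf1, Lcp1, Adgre1 and Cd86. The count of members that rose was 29 with the replicate block, 21 with the ordinary t statistic and 21 where a gene was represented by its most variable probe set, and 0 fell under any setting. With the most variable probe set their median was 1.80 and the count of all changed genes 2974, against 4858. Of the genes in the other lists 94 of 161 changed, but 54 with the ordinary t statistic and 54 with the most variable probe set. With 1 array left out, rises ran from 9 to 15 among leukocyte actin regulators and from 7 to 9 in the list with integrins. They ran from 5 to 8 among myeloid transcription factors and from 5 to 9 among lysosomal and lipid genes. The count of changed member probe sets was 96 with the ordinary t statistic, and 136 to 352 with 1 array left out. Cd48 was at 0.040 after cyclic loess and 0.10 after centring, and between -0.068 and 0.067 with 1 array left out, and Coro1a gave -0.21 when its most variable probe set stood for it. The ordinary t statistic uses no shrinkage of the variance, and the cause of the other shifts was not tested.

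Deviations of same-numbered arrays from their group means correlated at -0.07, -0.22 and 0.06, and those of differently numbered arrays at -0.23 to 0.29. Deviations within a group of 3 arrays are tied to each other. These values therefore cannot decide whether the replicate numbers pair the samples. With the replicate block 4082 genes and 248 member probe sets passed. Dim probe sets limit what can be read from the 26 member probe sets at or under background.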
